A study of Homo sapiens with 3 samples.

Results

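The genes described here are 34 protein-coding genes of innate nucleic acid sensing and of the interferon response, of 58051 genes in the count tables of H9 cells. They were taken by name from a fixed list: Ensembl identifiers were joined to GENCODE symbols, RIGI being the current symbol of DDX58, and all 34 had a row. The line H9 was derived from a human embryo and is pluripotent; it was wild type and untreated here, and was kept without feeder cells on Vitronectin-XF in Essential 8 Flex. The study sequenced RNA after depletion of ribosomal RNA to rank genes by expression, and its 3 replicates form 1 group, so that no comparison between conditions exists. The labels do not say whether the replicates came from separate cultures, so the spread between them may be technical. The libraries were made from 750 ng of RNA with 8 PCR cycles, and replicates 1, 2 and 3 hold 10390984, 12024802 and 8655155 counted reads. Of these, 8042, 8829 and 6779 reads lay on the 34 genes. Levels are given as TPM, reads per base of exon scaled to the same total in each replicate. All 8 pluripotency markers examined were highly expressed, with means from 258.6 to 2576 TPM.

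Cells sense foreign or misplaced nucleic acids with receptors in the cytosol and in endosomes. RIG-I (encoded by RIGI) and MDA5 (encoded by IFIH1) bind double-stranded RNA and signal through MAVS on mitochondria, cGAS binds DNA in the cytosol and signals through STING, and Toll-like receptors signal through MYD88 or TICAM1. The routes through MAVS, STING and TICAM1 meet at the kinases TBK1 and IKBKE and the factors IRF3 and IRF7, which induce interferon beta. Secreted interferon binds IFNAR1 and IFNAR2, and a complex named ISGF3, which holds STAT2 and IRF9, then turns on genes through the interferon-stimulated response element (ISRE). Pluripotent cells are known for a muted response of this kind and for expressing some of its antiviral products without induction.

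The study divided genes into nonexpressed genes, below 0.01 TPM, and 3 quantiles of the others. Classes of this kind were applied here to TPM computed from the counts, with the quantiles taken over protein-coding genes. Of the 34 genes, 2 were nonexpressed, 17 low, 8 medium and 7 high. Among all 19629 protein-coding genes, 13.6% were nonexpressed and 28.8% lay in each of the low, medium and high classes. The boundaries were 3.35 TPM between low and medium and 26.96 TPM between medium and high. The median of the 34 genes was 1.33 TPM, and that of all protein-coding genes was 7.10 TPM. The median of the members was 2.58 TPM with the longest transcript as length, and 4.05 TPM without members under 10 reads. At least 1 TPM was reached by 20 of the 34, against 67.4% of protein-coding genes, and more than 3 reads in every replicate were found for 28 of the 34, against 71.9%. No read was counted on 2 of the 34, against 13.5%. In RNA from bulk cells, fewer expressing cells and less RNA per cell cannot be told apart.

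**Figure D1:**
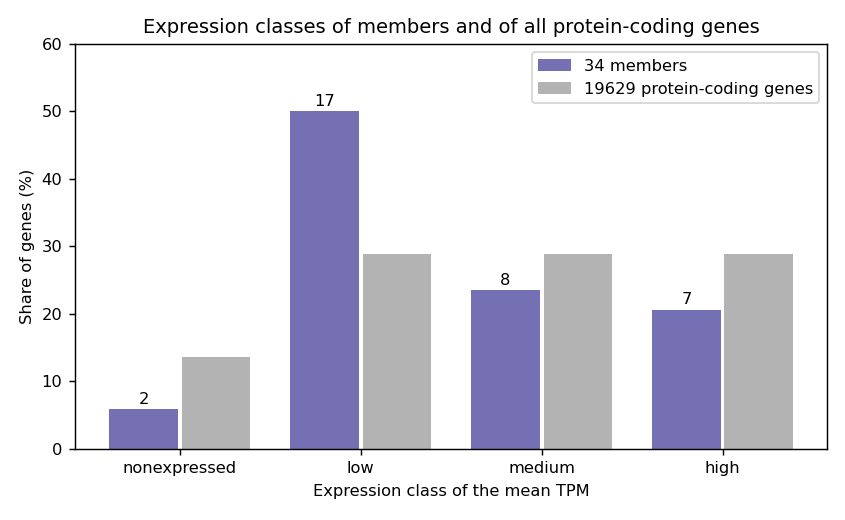
Share of genes (y axis, percent) in each expression class (x axis) for the 34 members and for 19629 protein-coding genes, with the number of members above their bars. The low class holds 17 members, and 7 are in the high class.

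**Figure D2:**
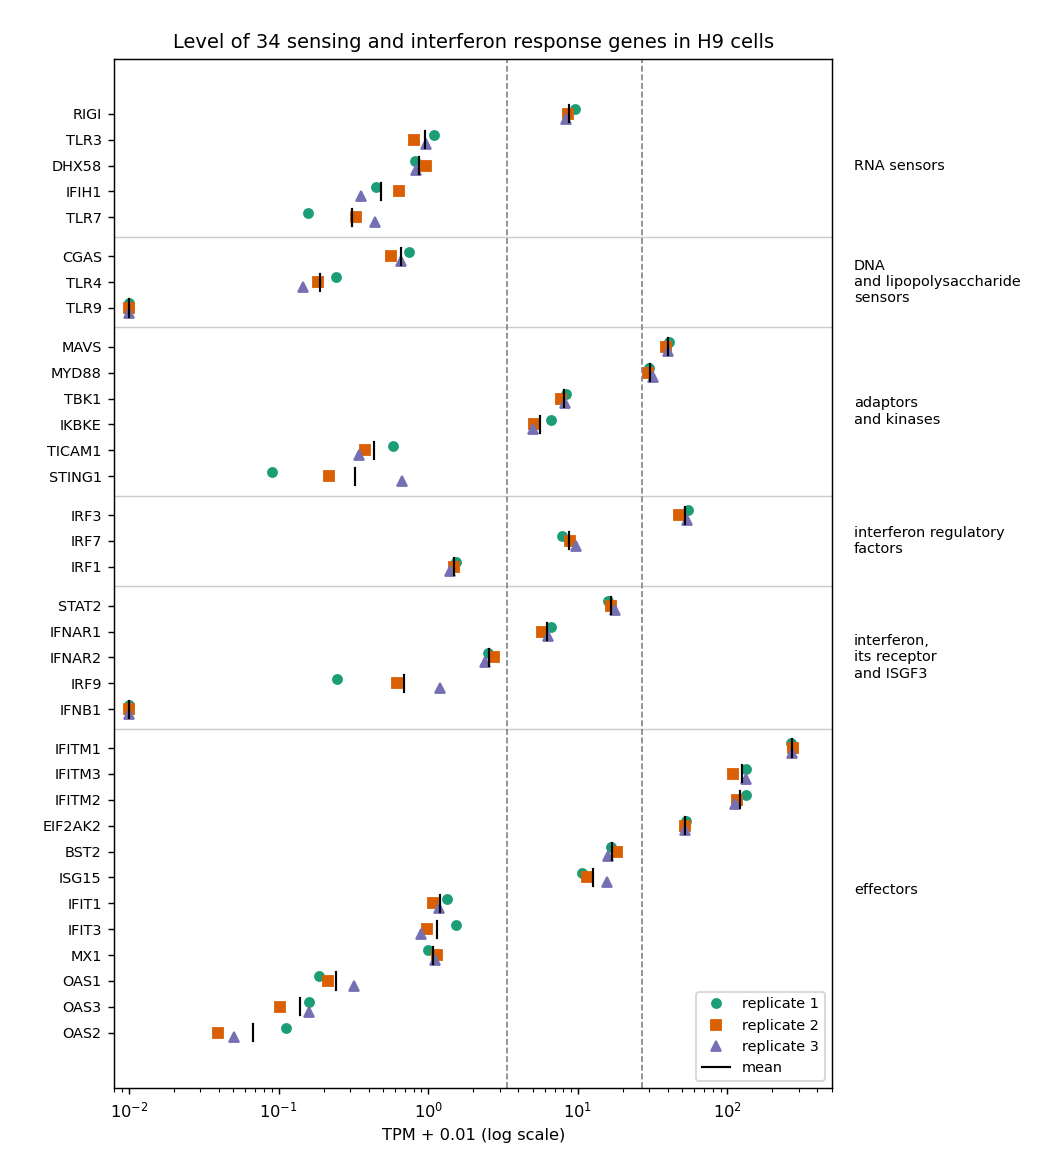
TPM in each replicate (points) and their mean (black ticks) for the 34 genes, by role. The x axis is logarithmic after adding 0.01 TPM, so genes without reads lie at its left end, and dashed lines mark the class boundaries of 3.35 and 26.96 TPM. IFITM1, IFITM2 and IFITM3 lie above every other member in all 3 replicates.

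Among the 5 RNA sensors, RIGI was the only one with a mean above 1 TPM over the 3 replicates, though TLR3 had 1.08 TPM in replicate 1 and a mean of 1.02 TPM without replicate 2. RIGI (chromosome 9, 32455302 to 32526208, minus strand) had 9.51, 8.56 and 8.28 TPM in replicates 1, 2 and 3, a mean of 8.78 ± 0.644 TPM (SD, n = 3). MDA5, the sensor of long double-stranded RNA, is encoded by IFIH1 (chromosome 2, 162267074 to 162318684), which had 6, 10 and 4 reads and 0.473 ± 0.146 TPM (SD, n = 3). In every replicate RIGI was higher than IFIH1 per length, by between 13.5 and 24.0 times. The size of this ratio depends on the length used. With the longest transcript the means were 13.8 and 0.501 TPM, and with unshared exon bases 13.6 and 0.415 TPM. The latter setting keeps all reads and shortens only the length. DHX58, which encodes LGP2, a helicase of the same family that regulates both sensors, had 8, 11 and 7 reads and 0.860 ± 0.0794 TPM (SD, n = 3). The endosomal receptor gene TLR3, for double-stranded RNA, had 21, 18 and 16 reads and 0.944 ± 0.142 TPM (SD, n = 3). TLR7, for single-stranded RNA, had 2, 5 and 5 reads and 0.2995 ± 0.144 TPM (SD, n = 3). The ranges of DHX58 and TLR3 overlapped, and those of both lay above the ranges of IFIH1 and TLR7. With a mean count of a few reads per library, the exact 95% Poisson interval of TLR7 ran from 0.155 to 0.523 TPM. That of IFIH1, 0.289 to 0.730 TPM, overlapped those of DHX58 (0.562 to 1.26 TPM) and TLR3 (0.711 to 1.228 TPM). The order of DHX58 and TLR3 over IFIH1 is therefore not resolved beyond counting error. Intervals and limits of this kind hold the counting error of reads alone. Copies made by PCR do not count separate molecules, so these intervals may be too narrow.

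The sensors of DNA and of lipopolysaccharide were all below 1 TPM. CGAS (chromosome 6, 73413515 to 73452297), which encodes the DNA sensor cGAS, had 8, 7 and 6 reads, a mean of 0.646 ± 0.0911 TPM (SD, n = 3), with a counting interval from 0.3999 to 0.988 TPM. TLR4, the receptor of bacterial lipopolysaccharide, had 8, 7 and 4 reads and 0.181 ± 0.0482 TPM (SD, n = 3). No read was counted on TLR9, the endosomal receptor of unmethylated CpG DNA, in any replicate. A count of 0 allows up to 3 reads per library, which for TLR9 is 0.296 to 0.403 TPM. The exons of TLR9 share 99.7% of their length with another gene model on the same strand (ENSG00000173366), which also had 0 reads in every replicate. Reads common to both models may have been counted on neither, so that absence of TLR9 transcripts was not shown.

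The adaptors divided into a highly expressed and a nearly unread pair. MAVS (chromosome 20, 3846799 to 3876123), the adaptor of RIG-I and MDA5, had 40.6, 38.6 and 40.1 TPM, a mean of 39.8 ± 1.02 TPM (SD, n = 3). MYD88, the adaptor of most Toll-like receptors, had 29.8, 29.7 and 31.9 TPM, a mean of 30.5 ± 1.28 TPM (SD, n = 3). Both were in the high class, and MAVS was above MYD88 in every replicate. MYD88 lay close to the boundary, and it was in the medium class with the longest transcript as length (23.4 TPM), with a threshold of 1 TPM and without protein-coding genes under 10 reads. STING1 (chromosome 5, 139475533 to 139482935), the adaptor downstream of cGAS, had 1, 3 and 7 reads, which are 0.0801, 0.207 and 0.657 TPM. The counting intervals of these 3 values overlapped, and the mean of 0.315 ± 0.303 TPM (SD, n = 3) was 0.143 TPM without replicate 3. In replicate 3, the replicate with most STING1 reads, MAVS was 61.0 times higher. TICAM1, which encodes TRIF, the adaptor of TLR3, had 4, 3 and 2 reads and 0.426 ± 0.128 TPM (SD, n = 3).

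Both kinases that phosphorylate IRF3 and IRF7 were in the medium class, but both were low with a threshold of 1 TPM, and IKBKE also without protein-coding genes under 10 reads. TBK1 had 8.33, 7.66 and 8.24 TPM, a mean of 8.07 ± 0.363 TPM (SD, n = 3), and IKBKE had 6.59, 5.06 and 4.99 TPM, a mean of 5.55 ± 0.903 TPM (SD, n = 3). TBK1 was the higher one in each replicate, by 1.26 to 1.65 times. TBK1 has an exon union of 14716 bp, and with its longest transcript of 5944 bp as length its mean was 15.0 TPM.

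Of the interferon regulatory factors, IRF3 was in the high class, IRF7 in the medium class and IRF1 in the low class. With all genes classified together IRF7 was high and IRF1 medium, and with a threshold of 1 TPM IRF7 was low. IRF3 (chromosome 19, 49659569 to 49665875), the factor that is present before infection and starts interferon transcription, had 54.9, 47.3 and 53.7 TPM, a mean of 51.95 ± 4.08 TPM (SD, n = 3). Of its exon length, 19.3% lies over exons of BCL2L12 on the opposite strand, which had 449, 485 and 421 reads, and without strand in the counting reads of the 2 genes cannot be told apart there. IRF7, which interferon itself induces and which amplifies the response, had 7.79, 8.86 and 9.66 TPM, a mean of 8.77 ± 0.935 TPM (SD, n = 3). IRF3 was 5.34 to 7.04 times higher than IRF7 in the 3 replicates. IRF1, which interferon gamma induces and which activates interferon-stimulated genes, had 1.53, 1.48 and 1.40 TPM, a mean of 1.47 ± 0.07004 TPM (SD, n = 3), and 2.63 TPM with the longest transcript as length.

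No interferon beta transcript was counted, while both receptor chains were. IFNB1 (chromosome 9, 21077104 to 21077942), a gene of a single exon of 839 bp, had 0 reads in each of the 3 replicates, which allows up to 1.18 to 1.61 TPM per library. The limit is higher than that of TLR9, since IFNB1 is the shorter gene. IFNAR1 (chromosome 21, 33324387 to 33359864) had 6.62, 5.78 and 6.27 TPM, a mean of 6.22 ± 0.422 TPM (SD, n = 3). IFNAR2 (chromosome 21, 33205282 to 33265675), the chain that binds interferon with high affinity, had 2.49, 2.74 and 2.40 TPM, a mean of 2.55 ± 0.174 TPM (SD, n = 3). The ranges did not overlap, and IFNAR1 was 2.11 to 2.65 times higher. With the longest transcript as length the means were 11.9 TPM for IFNAR1 and 2.94 TPM for IFNAR2, so that the size of this ratio depends on the length used. IFNAR2 shares 27.7% of its exon length with other genes, among them a read-through model on the same strand (0 reads) and a noncoding RNA gene on the opposite strand, IL10RB-DT (47, 58 and 26 reads). Both members of ISGF3 in the list differed widely. STAT2 had 16.0, 16.6 and 17.6 TPM, a mean of 16.7 ± 0.815 TPM (SD, n = 3). IRF9, the DNA-binding subunit, had 4, 12 and 17 reads, which are 0.238, 0.613 and 1.18 TPM, and a mean of 0.678 ± 0.477 TPM (SD, n = 3). Without replicate 3 its mean was 0.425 TPM. Of the exon length of IRF9, 23.9% is shared with another gene model on the same strand, which had 11, 9 and 9 reads.

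The 12 effector genes spanned the widest range, from 269 to 0.0574 TPM, and 3 of them held most of the signal. IFITM1, IFITM2 and IFITM3 encode small membrane proteins that block fusion of enveloped viruses with host membranes. IFITM1 (chromosome 11, 310041 to 315272, plus strand) had 265.4, 273.5 and 268.5 TPM, a mean of 269.2 ± 4.10 TPM (SD, n = 3). IFITM3 (chromosome 11, 319676 to 329475, minus strand) had 132.2, 109.2 and 133.1 TPM, a mean of 124.8 ± 13.5 TPM (SD, n = 3). IFITM2 (chromosome 11, 303655 to 309397, plus strand) had 133.5, 116.0 and 112.2 TPM, a mean of 120.6 ± 11.3 TPM (SD, n = 3). IFITM1 stood above both others in every replicate, by between 1.99 and 2.50 times, while IFITM2 and IFITM3 overlapped and IFITM2 was the higher one in 2 of 3. IFITM1 was above 97.7% of protein-coding genes. Together the 3 genes held 85.7 ± 0.473% (SD, n = 3) of the summed TPM of the 12 effectors and 65.5 ± 0.559% (SD, n = 3) of that of all 34 genes. They are near-identical copies in part: of their distinct 50-base transcript windows, 21.7% for IFITM1, 20.8% for IFITM2 and 15.9% for IFITM3 also occur in transcripts of other genes, most of them in another of the 3. Reads from these stretches may have been split or dropped, so the order within the family is uncertain. With the longest transcript as length, IFITM1 had 399.8, IFITM3 256.0 and IFITM2 144.8 TPM.

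The pseudogenes of the family had few reads. Over the 3 replicates, IFITM3P5 had 6 reads, IFITM3P3 and IFITM3P2 had 2 each, and IFITM4P and IFITM9P had 1 each, and no read was counted on the other 7 IFITM pseudogenes in the tables. Of the remaining coding family members, IFITM5, a gene known from bone, had 7 reads in all and IFITM10 had 6.

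EIF2AK2 (chromosome 2, 37099210 to 37157522), which encodes PKR, a kinase that stops translation on binding double-stranded RNA, was the next effector, at 52.9, 51.8 and 52.3 TPM and a mean of 52.3 ± 0.575 TPM (SD, n = 3). BST2, which encodes tetherin, a protein that holds budding virions at the cell surface, had 16.7, 18.3 and 16.0 TPM, a mean of 17.0 ± 1.195 TPM (SD, n = 3). ISG15, a ubiquitin-like modifier, had 24, 30 and 30 reads, or 10.6, 11.4 and 15.6 TPM, and a mean of 12.55 ± 2.66 TPM (SD, n = 3). These genes were in the high or the medium class.

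The other 6 effectors, all well known as strongly interferon-induced genes, were in the low class. With all genes classified together, in place of protein-coding genes alone, MX1, IFIT1 and IFIT3 were in the medium class. MX1, a dynamin-like GTPase that acts on influenza virus, had 46, 62 and 44 reads and 1.08 ± 0.0819 TPM (SD, n = 3). With the longest transcript of 5778 bp in place of its exon union of 17984 bp, the mean of MX1 was 2.52 TPM, still in the low class. IFIT1, which binds viral RNA without a host cap structure, had 16, 15 and 12 reads and 1.19 ± 0.130 TPM (SD, n = 3). Its relative IFIT3 had 20, 15 and 10 reads and 1.13 ± 0.339 TPM (SD, n = 3). The ranges of MX1, IFIT1 and IFIT3 overlapped. The oligoadenylate synthetases, which activate RNase L when they bind double-stranded RNA, were lowest: OAS1 had 6, 8 and 9 reads and 0.231 ± 0.0713 TPM (SD, n = 3), OAS3 had 7, 5 and 6 reads and 0.130 ± 0.0334 TPM (SD, n = 3), and OAS2 had 3, 1 and 1 reads and 0.0574 ± 0.0395 TPM (SD, n = 3). Without replicate 1 the mean of OAS2 was 0.0348 TPM, and with the longest transcript it was 0.0863 TPM. Within each replicate, IFITM1 was 240 to 270 times higher than MX1, and EIF2AK2 was 45.5 to 53.9 times higher. These ratios depend on the length used and are smaller with the longest transcript, where IFITM1 had 399.8, EIF2AK2 43.0 and MX1 2.52 TPM.

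Promoter sequences were examined because effectors of such different levels are known as targets of the same element. Windows from 250 bases before to 50 bases after a start were taken from RefSeq (GRCh38.p14), where 25 of the 34 symbols had an entry, with 29 windows in all. DHX58, TLR7, CGAS, STING1, IRF3, IRF7, IFNAR2, IFITM2 and OAS2 had none. The ISRE was searched as GAAA, any 2 bases and GAAA on both strands, with overlapping matches allowed. It was found in 14 of the 29 windows, and in 3.57% of the 35116 windows of all genes. By gene, 12 of 25 held it: BST2, EIF2AK2, IFIT1, IFIT3, IFITM1, IFITM3, ISG15, MX1 and OAS3 among 10 effectors, and IFIH1, MYD88 and TLR3 among 15 other genes. OAS1 was the effector without a match to this pattern. Its window, like that of RIGI, holds GAAACGAAA, where the repeats lie closer together than the 2 bases searched. The gamma-activated site (GAS), searched as TTC, any 3 bases and GAA on both strands, was found in 9 of the 29 windows, against 7.66% of all windows. A match is a description of the letters and not a bound site, and none of these windows was assayed.

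The windows of 3 highly expressed effectors, of BST2 in the medium class, and of MX1 and IFIT1 in the low class are shown so that matches can be compared across levels. They are written from 5′ to 3′ on the gene's strand, and capitals mark ISRE matches on either strand.

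IFITM1, chr11:313790-314089, plus strand: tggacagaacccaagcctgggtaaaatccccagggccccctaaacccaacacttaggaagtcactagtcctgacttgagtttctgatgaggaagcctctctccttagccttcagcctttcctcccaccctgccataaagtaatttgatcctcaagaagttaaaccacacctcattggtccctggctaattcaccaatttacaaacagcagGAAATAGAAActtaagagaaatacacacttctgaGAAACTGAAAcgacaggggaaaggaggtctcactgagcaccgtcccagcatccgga
IFITM3, chr11:320811-321110, minus strand: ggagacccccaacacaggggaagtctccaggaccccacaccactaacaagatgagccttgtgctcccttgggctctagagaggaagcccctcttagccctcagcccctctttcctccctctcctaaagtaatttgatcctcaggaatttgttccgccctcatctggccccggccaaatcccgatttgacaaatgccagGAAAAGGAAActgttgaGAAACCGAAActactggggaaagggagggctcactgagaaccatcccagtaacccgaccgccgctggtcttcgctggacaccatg
EIF2AK2, chr2:37156931-37157230, minus strand: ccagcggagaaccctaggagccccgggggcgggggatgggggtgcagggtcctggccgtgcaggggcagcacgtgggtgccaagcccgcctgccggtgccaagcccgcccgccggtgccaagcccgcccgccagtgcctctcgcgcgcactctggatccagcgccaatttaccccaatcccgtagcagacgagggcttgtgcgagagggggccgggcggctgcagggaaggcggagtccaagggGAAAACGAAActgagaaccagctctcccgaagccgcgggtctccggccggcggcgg
BST2, chr19:17405581-17405880, minus strand: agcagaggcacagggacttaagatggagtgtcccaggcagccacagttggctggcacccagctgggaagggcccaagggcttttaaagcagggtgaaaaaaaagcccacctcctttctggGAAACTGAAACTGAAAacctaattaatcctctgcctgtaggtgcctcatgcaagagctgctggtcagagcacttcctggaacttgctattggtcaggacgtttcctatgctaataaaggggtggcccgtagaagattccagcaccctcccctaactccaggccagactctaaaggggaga
MX1, chr21:41420308-41420607, plus strand: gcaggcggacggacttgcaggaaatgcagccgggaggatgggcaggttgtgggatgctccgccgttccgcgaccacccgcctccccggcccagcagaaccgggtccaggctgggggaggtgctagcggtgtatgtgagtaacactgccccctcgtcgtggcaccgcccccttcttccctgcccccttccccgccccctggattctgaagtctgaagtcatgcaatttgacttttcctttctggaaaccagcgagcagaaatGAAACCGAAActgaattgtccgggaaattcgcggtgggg
IFIT1, chr10:89392373-89392672, plus strand: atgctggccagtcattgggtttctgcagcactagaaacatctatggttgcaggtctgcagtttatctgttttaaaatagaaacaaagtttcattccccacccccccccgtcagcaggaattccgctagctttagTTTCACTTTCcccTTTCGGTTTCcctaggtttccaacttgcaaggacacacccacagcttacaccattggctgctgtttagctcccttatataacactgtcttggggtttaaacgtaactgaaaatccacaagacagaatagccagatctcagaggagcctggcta

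The matches began 40 and 6 bases before the start in IFITM1, 52 and 35 bases before it in IFITM3, and 6 bases before it in EIF2AK2. In BST2, 2 overlapping matches began 130 and 124 bases before the start, and in IFIT1, 2 matches on the other strand began 116 and 103 bases before it. The MX1 window shown is the most upstream of its 3, and its match began 11 bases after the start. IFITM1, at 269 TPM, and IFIT1, at 1.19 TPM, thus each had 2 matches within 250 bases of the start. This holds for the pattern as searched. A stricter pattern, with a C after each GAAA, was found in IFITM1, IFITM3, BST2 and MX1 but not in EIF2AK2 or IFIT1.

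Promoter composition was compared after the counts had been seen. The ratio of observed to expected CpG in the window had a median of 0.873 over protein-coding genes of the high class and 0.221 over nonexpressed ones. MAVS (0.913), EIF2AK2 (0.768) and MYD88 (0.775) had such CpG-rich windows, whereas IFITM1 had 0.184 and IFITM3 had 0.360 in spite of their high levels. BST2 had 0.0962, with the level of a medium gene. Among the low class, IRF1 had 0.890 and TICAM1 0.817. These are exceptions picked by eye. The medians of the members with a window were 0.0966 for the 2 nonexpressed, 0.461 for 11 low, 0.806 for 7 medium and 0.768 for 5 high genes, beside 0.221, 0.527, 0.829 and 0.873 for all protein-coding genes of these classes, and no test was made.

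Several members lie in clusters, and levels were read along them. On chromosome 11 the order was NLRP6, PGGHG, IFITM5, IFITM2, IFITM1, IFITM3 and B4GALNT4. IFITM5 had 1.13 ± 0.970 TPM (SD, n = 3), next to IFITM2 at 120.6 TPM, and B4GALNT4 on the other side had 32.1 ± 6.03 TPM (SD, n = 3). On chromosome 10, IFIT2 had 1 read over the 3 replicates and IFIT1B had 0, while IFIT5 had 74, 77 and 53 reads and 5.93 ± 0.529 TPM (SD, n = 3). IFIT5, an RNA-binding relative of IFIT1, was therefore the highest of the IFIT genes there in every replicate. With boundaries from protein-coding genes it was the only one of them in the medium class. With all genes classified together, IFIT1 and IFIT3 were medium. On chromosome 12, OAS1, OAS3 and OAS2 had 0.0294 to 0.311 TPM over all replicates, and the genes next to them were low or close to it, with 0.325 TPM for RPH3A, 3.655 TPM for DTX1 and 2.00 TPM for RASAL1. PTPN11, at 80.2 TPM, and DDX54, at 75.3 TPM, lie farther out. The 3 highest neighbors were HRAS (47.4 TPM), B4GALNT4 and PTDSS2 (27.5 TPM) at the IFITM cluster, PANK1 (25.6 TPM), SLC16A12 (21.7 TPM) and LIPA (14.0 TPM) at the IFIT cluster, and RPL6 (418.1 TPM), PTPN11 and DDX54 at the OAS cluster.

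**Figure D3:**
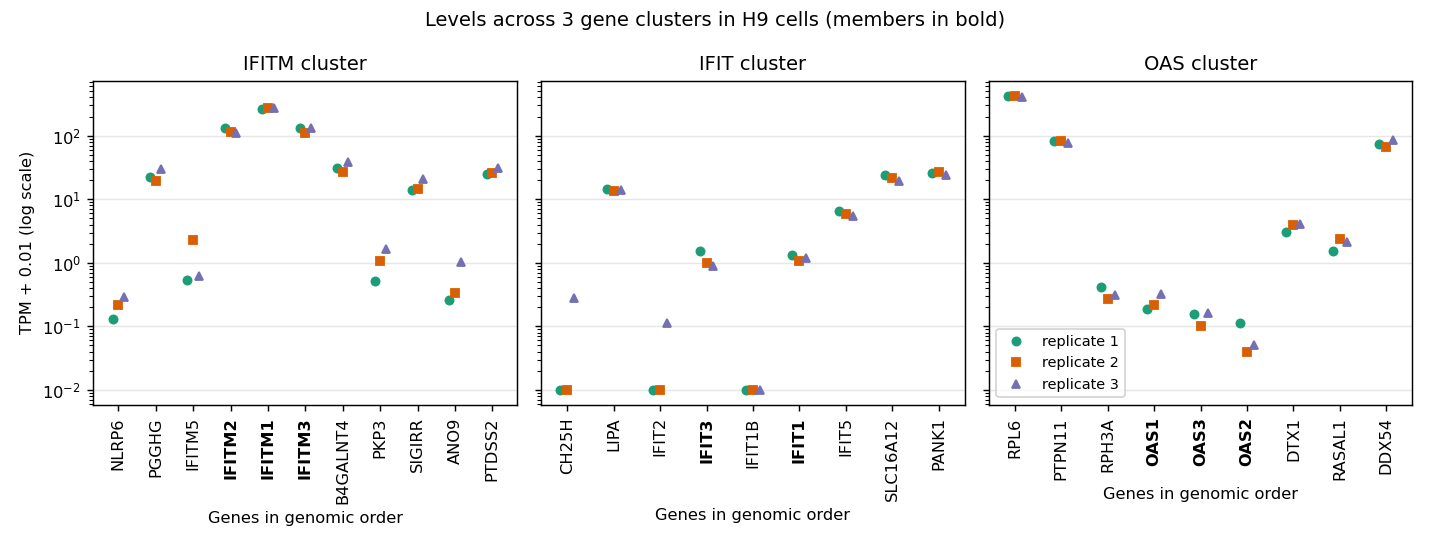
TPM in each replicate (y axis, logarithmic after adding 0.01 TPM) of genes in genomic order (x axis) in 3 clusters, with members in bold. IFITM1, IFITM2 and IFITM3 lie between 109.2 and 273.5 TPM, whereas OAS1, OAS2 and OAS3 lie below 1 TPM.

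In the order of mean levels, 12 of 33 neighboring pairs had ranges over the replicates that did not overlap, and the ranges of 21 pairs overlapped. Of the overlapping pairs, IFNAR1 over IKBKE and OAS3 over OAS2 had this order in all 3 replicates. The 12 include OAS2 over TLR9, a pair that is not resolved, since the limit for TLR9 lies above each value of OAS2. With the exon union as length, the upper part fell into steps, though the first step, within the IFITM family, is uncertain because of shared sequence. The steps were IFITM1, then IFITM3 with IFITM2, then EIF2AK2 with IRF3, MAVS, MYD88, BST2 with STAT2, and ISG15. Below these came RIGI, IRF7 and TBK1, then IFNAR1 with IKBKE, then IFNAR2, then IRF1. With the longest transcript this order changed: TBK1 (15.0 TPM), RIGI (13.8) and IFNAR1 (11.9) had higher means than ISG15 (10.4), and EIF2AK2 (43.0) had a lower mean than IRF3 (51.6). Below IRF1, at 1.47 TPM with the exon union, every neighboring pair from IFIT1 (1.19 TPM) down to OAS2 (0.0574 TPM) overlapped. TLR9 and IFNB1 had no reads. The steps named above rest on ranges over 3 replicates, and counting intervals overlapped across some of them. That of ISG15 (10.01 to 15.54 TPM) overlapped those of BST2 (14.38 to 19.98 TPM) and IRF7 (7.53 to 10.15 TPM). That of IRF1 (1.24 to 1.73 TPM) overlapped that of IFIT1 (0.863 to 1.61 TPM). RIGI and IRF7 had means of 8.781 and 8.770 TPM, less apart than either SD.

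The spread between replicates was smaller for members with more reads. The coefficient of variation of TPM had a median of 4.198% for the 7 high, 7.18% for the 8 medium and 26.7% for the 17 low members, beside 5.03%, 8.41% and 37.9% for all protein-coding genes of these classes. The summed reads of the replicates had a median of 23 for low members and of 2759 for high ones. EIF2AK2, with 4531 reads, had the smallest coefficient of the 32 members with reads, at 1.10%, and STING1 the largest, at 96.4%. The exact 95% Poisson intervals of some pair of replicates were separate for 2 of the 34 genes, against 12.3% of protein-coding genes. These were IRF9, with 0.0647 to 0.608 TPM in replicate 1 and 0.690 to 1.90 TPM in replicate 3, and IFITM3, with 102.3 to 116.4 TPM in replicate 2 and 124.1 to 140.8 TPM in replicate 1. Over the 11 members with at least 100 reads in every replicate, each replicate was set against the mean of the remaining pair, and the log2 ratio ran from -0.09 (STAT2) to 0.23 (IFITM2) for replicate 1, from -0.28 (IFITM3) to 0.03 (IFITM1) for replicate 2 and from -0.15 (IFITM2) to 0.14 (IFITM3) for replicate 3.

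**Figure D4:**
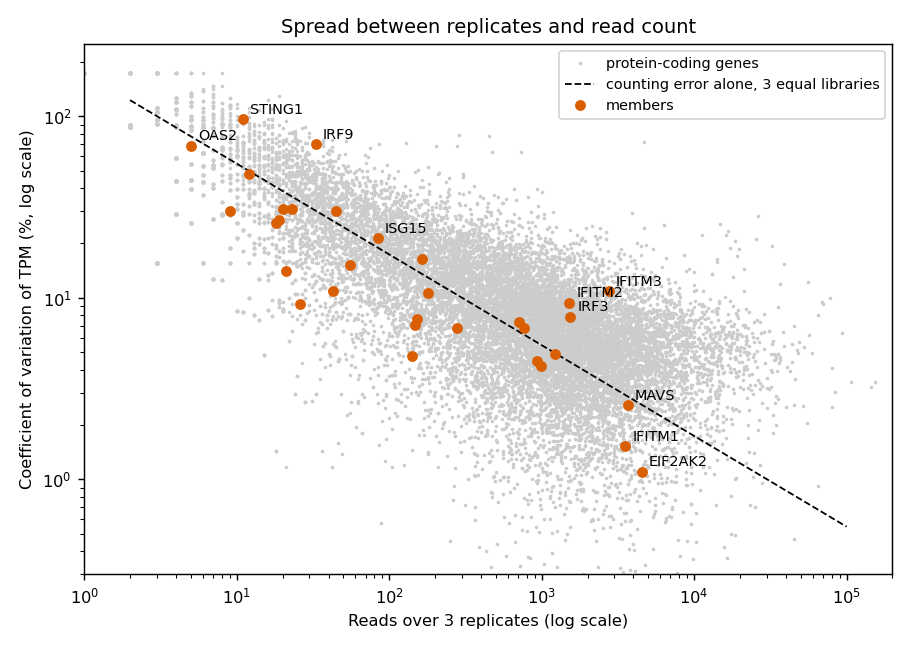
Coefficient of variation of TPM between replicates (y axis, percent) against reads over the 3 replicates (x axis), both logarithmic, for members (orange) and protein-coding genes with reads (gray). The dashed line is the spread that counting alone gives in 3 equal libraries. IRF9, at 70.3%, and IFITM3, at 10.8%, lie above it, and IFITM1, at 1.52%, and EIF2AK2 lie below.

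Overlap with other genes may limit some of these levels. Of the 34 genes, 15 share less than 1% of their exon length with another gene and 8 share at least 10%. For RIGI, 43.2% is shared with a gene model on the same strand that has no row in the tables. No read was thus seen to be counted on that model. With only the unshared bases as length, RIGI had 13.6 TPM in place of 8.78. This setting keeps all reads and shortens only the length, so the higher value is not a corrected level. IRF1 has 22.9% under exons of IRF1-AS1 on the opposite strand, which had 1, 8 and 0 reads. IFITM1 has 21.1% in common with a same-strand model without a row. Members with no shared bases include MAVS, MYD88, STAT2, STING1, BST2, IFIT1, OAS2 and OAS3, and they ranged from the high class to the lowest levels.

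Other genes of the pathway were taken from lists and described by the same classes. Of 12 other sensors, 11 were low and 1, TLR1, had no read. The 3 highest were NOD1, a sensor of bacterial peptidoglycan, at 2.46 ± 0.445 TPM, TLR5 at 1.15 ± 0.345 TPM and IFI16 at 0.724 ± 0.258 TPM (SD, n = 3). Of 13 other adaptors, ubiquitin ligases and kinases, 2 were high, 10 medium and 1 low. IRAK1, a kinase downstream of MYD88, had 39.0 ± 1.05 TPM (SD, n = 3), TRIM25, a ubiquitin ligase that activates RIG-I, had 32.9 ± 0.942 TPM (SD, n = 3), and CHUK, a kinase of the NF-κB pathway, had 25.6 ± 2.23 TPM (SD, n = 3). The median of this list was 11.6 TPM, and that of the other sensors was 0.341 TPM. Among the members the medians were 6.81 TPM for adaptors and kinases and 0.860 TPM for RNA sensors, with the adaptors STING1 (0.315 TPM) and TICAM1 (0.426 TPM) in the range of the sensors. Levels in the other lists overlapped as well. NOD1 had a higher mean than IRAK4 (2.355 TPM), but IRAK4 was the higher one in replicates 1 and 3.

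No read was counted on 16 of 20 other interferon genes, many of them near-identical copies of each other whose reads may have been dropped. They are IFNA1, IFNA2, IFNA4, IFNA5, IFNA6, IFNA7, IFNA8, IFNA10, IFNA14, IFNA16, IFNA17, IFNA21, IFNW1, IFNG, IFNL1 and IFNL2. IFNK, an interferon of keratinocytes, had 5, 10 and 4 reads and 2.01 ± 0.718 TPM (SD, n = 3). IFNE had 2 reads and IFNA13 and IFNL3 had 1 read each over the 3 replicates. Of 8 receptor and JAK-STAT genes, 3 were high, 4 medium and 1 low, led by STAT3 at 62.7 ± 3.85, IFNGR2 at 39.0 ± 1.95 and IFNGR1 at 29.8 ± 0.803 TPM (SD, n = 3).

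Of 25 other interferon-stimulated genes, none was high, 7 were medium, 14 low and 4 without a read (OASL, IFI44, SAMD9L and CXCL10). The highest were TRIM5, a restriction factor of retroviruses, at 23.2 ± 2.06 TPM, DTX3L, a ubiquitin ligase, at 10.5 ± 0.771 TPM, and TRIM22 at 8.61 ± 0.590 TPM (SD, n = 3). Their median was 0.589 TPM, and that of the 12 effectors among the members was 6.87 TPM. Of 15 restrainers of sensing and signaling, 6 were high, 7 medium, 1 low and 1 without a read. ADAR, which edits double-stranded RNA and keeps it from activating MDA5 and PKR, was highest at 241.1, 239.1 and 230.4 TPM, 4.41 to 4.62 times EIF2AK2 in the 3 replicates. RNASEH2A, the catalytic subunit of RNase H2, had 118.7 ± 4.47 TPM (SD, n = 3) and TRIM27, a ubiquitin ligase that restrains TBK1, had 44.8 ± 1.62 TPM (SD, n = 3). Of the exon length of RNASEH2A, 53.3% is shared on the same strand, which may have affected its count. The gene without a read was TREX1, whose exons lie wholly within a same-strand gene model, ATRIP (3, 6 and 6 reads), so that its reads may not have been counted.

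**Figure D5:**
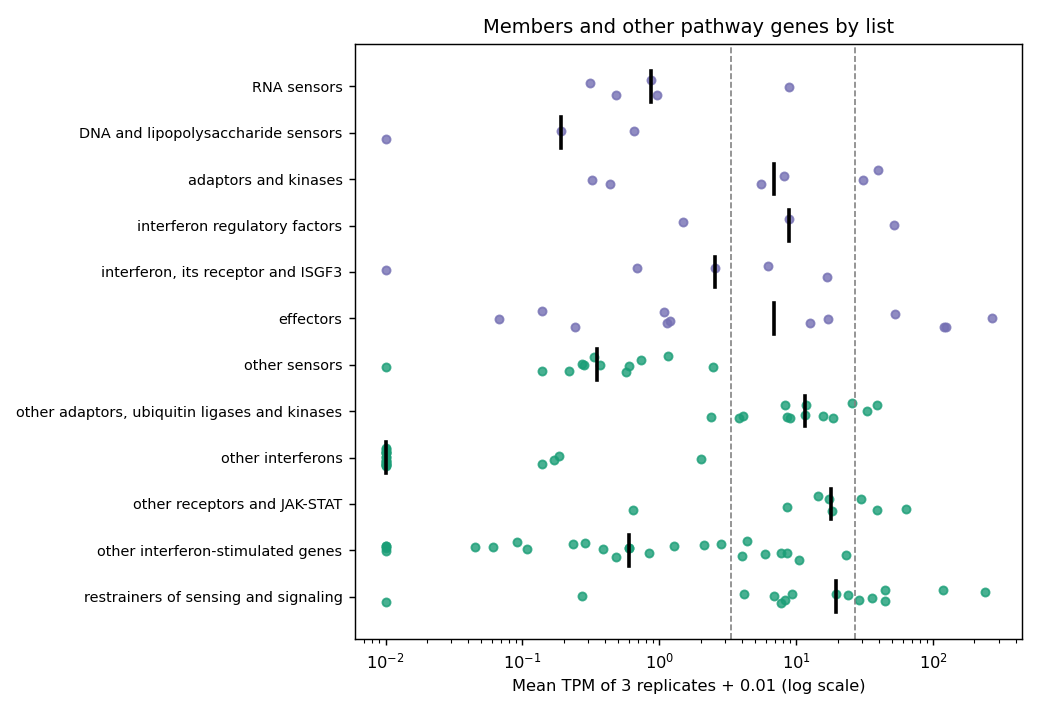
Mean TPM of 3 replicates (x axis, logarithmic after adding 0.01 TPM) for members by role (purple) and for the other pathway lists (green), with black ticks at each list's median and dashed lines at the class boundaries. Other interferons gather at the left end, with 16 of 20 without a read, and the restrainers have a median of 19.6 TPM.

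Markers of other cells were read beside these levels, since blood cells express many sensors. Of 8 blood and immune markers, 7 were low and CD14 had no read, and their summed level was 4.90 to 6.87 TPM in the replicates. LYZ had 3.34 ± 0.792 TPM (SD, n = 3), and PTPRC, which marks blood cells, had 2, 4 and 1 reads. Of 6 endothelial markers all were low, with a sum of 2.06 to 3.93 TPM. Of 8 fibroblast markers 1 was high, 3 medium and 4 low, with a sum of 187.8 to 205.1 TPM. THY1, which stem cells also express, had 144.6 TPM, and the medium ones were COL1A2 (25.6 TPM), COL1A1 (14.6 TPM) and TWIST2 (5.93 TPM), while DCN had 0.0985 TPM and LUM 2, 2 and 0 reads. Among 6 markers of mesendoderm and endoderm 3 were medium, led by MIXL1 at 22.3 ± 5.66 TPM (SD, n = 3), with a sum of 33.9 to 52.1 TPM. Of 5 neural markers, NES, ZIC1 and OTX2 were high and made up most of the sum of 489.8 to 560.3 TPM, and PAX6 (1.74 TPM) and SOX1 (2.97 TPM) were low. Of 6 trophectoderm and amnion markers 4 were low, KRT7 was medium and CDX2 had no read, with a sum of 7.61 to 10.7 TPM. Their part in the levels of sensing genes was not tested.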

How the data were processed

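RNA of 3 untreated H9 replicates (RIN above 7) was depleted of ribosomal RNA and sequenced. The authors trimmed reads with Trim Galore (0.4.4), aligned them to GRCh38 with TopHat2 (2.1.1) and deposited whole-number counts of reads per gene, without normalization. The sources used here do not name the counting tool, its annotation or its strand setting. The abundances that the study computed with Cufflinks (2.2.1) were not used here.

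GENCODE release 44 matched 56948 of 58051 identifiers, and their counts were divided by the union of exon lengths and scaled to TPM in each replicate. Levels were averaged over 3 replicates. With 1 condition, no test between groups was made. Totals of 8655155 to 12024802 counts make 1 read worth a median of 0.0644 to 0.0878 TPM for these genes. Unmatched genes held 0.273% to 0.294% of counts. Overlaps came from GENCODE exons, promoter windows from RefSeq (GRCh38.p14), and near-identical copies from 50-base windows of GENCODE transcripts. The computation of TPM, classes and exact Poisson intervals (95%) was checked on Poisson counts simulated from the observed levels. Such counts hold counting error alone, so the check does not tell whether the intervals cover the spread in these data. R 4.3.3, edgeR 4.0.16 and DESeq2 1.42.0 (library scaling only), matplotlib 3.10.9, pandas 2.3.3, numpy 2.4.6 and scipy 1.17.1 under Python 3.11.15 were used.

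The 34 members and the other lists were chosen with earlier results of these data known. All members are named, and from each other pathway list and each cluster's neighbors the 3 highest genes and those without a read. Markers of cell types are given by counts and sums, and the markers and other genes named beside them were chosen after their values were seen. Alternatives were TMM and DESeq2 scaling, other gene lengths, thresholds and filters, the median over replicates, thinning to 50% (11 draws), and leaving out each replicate. The values of 1 gene of the other lists are not reported here.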

Additional observations from a re-analysis of the deposited data

How the results depend on the processing

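TMM factors (0.991 to 1.02) and DESeq2 size factors moved no member by more than its SD and changed no class. The classes of the 34 genes were the same without each replicate in turn, with the median of the replicates, without mitochondrial genes and with unshared exon bases as length. With the longest transcript as length MYD88 passed from high to medium, 17 means moved by more than their SD, 7 means moved by over 1.5 times (all higher, OAS2 by less than its SD), and the median level was 2.58 in place of 1.33 TPM. It was 4.05 TPM without the 4 members under 10 reads in all. A threshold of 1 TPM gave 14 nonexpressed, 10 low and 4 medium members. Leaving out protein-coding genes under 10 reads left 0 nonexpressed, by construction. MYD88 was in the medium class and IKBKE and IFNAR1 in the low class under both, and RIGI, TBK1 and IRF7 were low at 1 TPM. Classifying all genes together gave 10 low and 12 high members. RIGI, IRF7, STAT2, ISG15 and BST2 then passed from medium to high. DHX58, TLR3, IRF1, IFNAR2, MX1, IFIT1 and IFIT3 passed from low to medium. The median coefficient of variation of the members, 10.7%, was 7.84% to 10.5% with a replicate left out. A stricter ISRE, with a C after each GAAA, was found in 7 genes in place of 12. It was found in 24.1% of the member windows and in 0.242% of all windows. The genes were BST2, IFIH1, IFIT3, IFITM1, IFITM3, ISG15 and MX1. At 50% of the depth a median of 21 members, in place of 28, had more than 3 reads in every replicate. The cause of these moves was not tested. No paired analysis was possible because only 1 group exists.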
